A study of Mus musculus with 10 samples.

Results

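Embryoid bodies (EBs) of wild-type mouse embryonic stem cells (ESCs) were set against wild-type mouse embryos across all genes, to ask which lineages and gene programs of the embryo the EBs share and which they lack. The comparison takes 6 of the 10 RNA-seq libraries of a study of Strap, a serine/threonine kinase receptor associated protein, in early organogenesis. These are 2 libraries of 9-day-old EBs (EB WT 1 and EB WT 2), 2 of whole embryos at E8.0 and 2 at E9.0. The members were chosen by their labels alone, and no measured value entered the choice. The remaining libraries are Strap-/- EBs and ESCs, which enter here only where named.

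All 6 libraries carry the wild-type Strap genotype, and the labels give the strain C57BL/6 throughout. By the study's methods the ESC lines came from blastocysts of Strap+/- intercrosses and were kept on mouse embryonic fibroblast feeders. The mutant allele had been made in V6.5 ESCs by zinc-finger nucleases and backcrossed to C57BL/6. Which ESC line gave the WT EBs is not given in the sources used here. The EBs were formed in ES medium without LIF and were then moved to N2B27, a serum-free neural medium, with bFGF. The embryos were untreated and were lysed whole, and whether the yolk sac was removed is not stated. For the younger embryos the table's headings name an older stage than GEO's age label does, and E8.0 follows that label. By the study's legends the 2 libraries of a group were separate biological samples. Each E8.0 library was made from 5 embryos put together and each E9.0 library from 2, so the embryo libraries average over animals.

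In the mouse embryo the stages around E8 to E9 follow gastrulation. The axis lengthens from progenitors in the tailbud, somites bud off in pairs, the heart tube begins to beat, the neural tube closes and regionalises, and primitive red cells made in the yolk sac enter the circulation. EBs are free-floating aggregates in which ESCs leave pluripotency and form derivatives of the germ layers without an imposed body axis, and medium without serum but with bFGF favours neural fates.

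Values are FPKM, the number of sequenced fragments scaled by transcript length and by library size, as deposited. Differences are given as log2 differences of FPKM + 1, WT EBs minus embryos, a scale that understates the change of weakly expressed genes. Rows entered the test once 2 libraries among the 8 of EBs (wild type and Strap-/-) and embryos reached 1 FPKM. A row was called higher or lower where limma gave a Benjamini-Hochberg adjusted p under 0.05 over the 15160 rows tested. In bulk RNA, fewer cells of a type and less RNA per cell cannot be told apart.

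The libraries differed in depth and in spread. Depth recovered from the FPKM steps of weakly expressed genes was about 18500000 and 19000000 fragments for the WT EBs, against 34900000 to 56300000 for the embryos. Within a group, the libraries lay a median absolute log2 distance of 0.252 apart for the WT EBs, 0.10 for E8.0 and 0.109 for E9.0, so over all rows the EB pair was the widest. Rows resembling ribosomal RNA took 15% of the FPKM in EB WT 1 and 0.825% in EB WT 2, against 0.168% to 2.07% in the embryos, and mitochondrial transcripts took 5.70% and 6.62% against 0.262% to 2.38%. The mitochondrial share of the EBs lay largely in the row joining mt-Nd1 and mt-Nd2. That row stood at 33607 and 34691 FPKM in the EBs, 0 and 0 at E8.0 and 12664 and 0 at E9.0. The row with mt-Co1 had 3272.5 and 3840.5 FPKM in the EBs, 2288 and 1842 at E8.0 and 1045 and 1147 at E9.0. The row with mt-Cytb had 519 and 665 FPKM in the EBs, 756 and 607 at E8.0 and 249.5 and 314 at E9.0. Strap itself, the gene altered in the mutant lines, stood at 49.7 and 47.2 FPKM in the WT EBs and at 82.7 to 98.5 FPKM in the embryos. The row that Xist, the RNA that silences an X chromosome, shares with 2 short gene models stood at 0.736 and 1.32 FPKM in the EBs and at 34.1 to 52.5 FPKM in the embryos. Y-linked transcripts were near 0 in both EB libraries: Eif2s3y, a translation factor gene on the Y chromosome, had 0.0326 and 0 FPKM in WT EBs, 14.8 and 9.04 at E8.0 and 11.4 and 10.7 at E9.0. Ddx3y, Kdm5d and Uty were likewise lower in WT EBs, at no more than 0.0248 FPKM in the EBs. The part of sex, of depth and of ribosomal and mitochondrial RNA in the differences below was not tested.

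Of the 15160 rows tested, 3626 (23.9%) were called higher in WT EBs than in the 4 embryo libraries and 3075 (20.3%) lower, 6701 in all (44.2%). The median log2 difference over all rows was 0.052. By size, 1667 rows (11%) were both called and at least 2-fold higher, and 1014 (6.69%) at least 2-fold lower. In 7847 rows (51.8%) the 95% interval of the difference lay within 2-fold in both directions. Both EB libraries lay above all 4 embryo libraries in 5210 rows (34.4%) and below all 4 in 4482 rows (29.6%). Many genes named below were picked for a low p or a large difference. That choice favours such separation, so the separation is no added evidence for them. Against E8.0 alone 21.8% of rows were called higher and 18.0% lower, and against E9.0 alone 24.7% and 21.8%. Fewer rows were called when either EB library was left out, and the cause of the drop was not tested. In those fits the single WT EB library was taken to vary as the Strap-/- EB pair did.

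Most genes that were clearly expressed in embryos were also expressed in the EBs. Of 8538 rows with at least 5 FPKM in all 4 embryo libraries, 18 were under 0.5 FPKM in both WT EB libraries. These 18 were made up of Hox genes, globins and other blood genes, Y-linked genes, the muscle myosin light chain Myl1 and the neural crest factor Sox10. In the other direction, 55 of 9014 rows with at least 5 FPKM in both EB libraries were under 0.5 FPKM in all 4 embryo libraries. The leading ones were Dppa5a, Nanog, Dnmt3l, Lncenc1, Fbxo15 and Dppa3, genes known from pluripotent cells and the germ line, and Srgn, a proteoglycan core protein. A total of 7896 rows reached 5 FPKM in all 6 libraries.

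Pluripotency genes led the highest differences. Of 23 tested members of a list of 24 naive and core pluripotency genes, 19 were higher in WT EBs and 2 lower (19 and 1 without EB WT 1, 17 and 0 without EB WT 2), with a median log2 difference of 3.66 against 0.052 over all rows. Dppa5a, an RNA-binding protein gene of early embryos and germ cells, had 218 and 578 FPKM in WT EBs, 0.371 and 0.388 at E8.0 and 0.0613 and 0 at E9.0 (log2 difference 8.22 ± 0.29 SE, limma adjusted p = 4.4e-05). Nanog, a homeobox factor that sustains self-renewal, had 59.2 and 112 FPKM in WT EBs, 0.216 and 0.102 at E8.0 and 0.0424 and 0.0779 at E9.0 (log2 difference 6.22 ± 0.25 SE, limma adjusted p = 4.4e-05). Neither gene overlapped between EBs and embryos, and both lay higher in EB WT 2 than in EB WT 1. Pou5f1, which encodes the core factor Oct4, had 83.3 and 199 FPKM in WT EBs, 6.18 and 1.41 at E8.0 and 0.20 and 0.103 at E9.0 (log2 difference 5.89 ± 0.76 SE, limma adjusted p = 0.0016). Its embryo level was higher at E8.0 than at E9.0, the stages between which Oct4 is known to be lost from somatic tissue.

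Nanog is shown with the sequence before its start site because its promoter is a known target of the SOX2 and OCT4 pair. The stretch is the 250 bases upstream of the RefSeq start (GRCm38.p6, chr6:122707239-122707488, plus strand), and capitals mark the match to CATTGT and ATGC set 1 base apart, a SOX and a POU recognition sequence, here on the minus strand.
Nanog: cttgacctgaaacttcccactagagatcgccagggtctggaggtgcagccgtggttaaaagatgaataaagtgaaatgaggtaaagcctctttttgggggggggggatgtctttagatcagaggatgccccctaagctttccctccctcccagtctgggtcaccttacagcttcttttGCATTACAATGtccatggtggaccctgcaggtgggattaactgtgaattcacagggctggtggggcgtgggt
The match lies 72 to 62 bases before the start site. The same letters, searched on both strands, stood in 19 of 32851 upstream windows of this length (0.0578%). Of the 15 pluripotency genes with a RefSeq window, Nanog alone held them, and a match is a description of sequence and no measure of binding.

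Esrrb, Zfp42 and Tdgf1 also stood higher in the EBs. Esrrb, a nuclear receptor of the naive state, had 24.8 and 73.2 FPKM in WT EBs, 0.52 and 0.225 at E8.0 and 0.317 and 0.24 at E9.0 (log2 difference 5.05 ± 0.38 SE, limma adjusted p = 2.9e-04). Zfp42, the marker Rex1, had 9.31 and 19.9 FPKM in WT EBs, 0.191 and 0.148 at E8.0 and 0.0179 and 0.0113 at E9.0. Tdgf1, a co-receptor for Nodal, had 40.6 and 93.8 FPKM in WT EBs, 2.97 and 1.97 at E8.0 and 0.835 and 1.01 at E9.0. In each of these 3 genes both EB libraries stood above all embryo libraries. Sox2, shared by pluripotent and neural cells, had 38 and 62.9 FPKM in WT EBs, 24.2 and 25.5 at E8.0 and 25.6 and 30.2 at E9.0, a log2 difference of 0.87 called with both EB libraries (adjusted p = 0.016 by limma) and not with EB WT 2 left out (0.51, adjusted p = 0.24). Tbx3 and Sall4 were not called. Lin28a, an RNA-binding protein that blocks let-7 maturation, was lower in WT EBs, with 103 and 92 FPKM in WT EBs, 287 and 262 at E8.0 and 135 and 130.2 at E9.0 (log2 difference -0.96 ± 0.16 SE, limma adjusted p = 0.0034), and this call too was lost without EB WT 2 (-0.88, adjusted p = 0.072). Trim71 was the other member called lower, and it lost its call when either EB library was left out (-0.29, adjusted p = 0.26, and -0.61, adjusted p = 0.077). For scale, the single WT ESC library of the series held 494 FPKM of Nanog and 728 FPKM of Dppa5a.

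**Figure D1:**
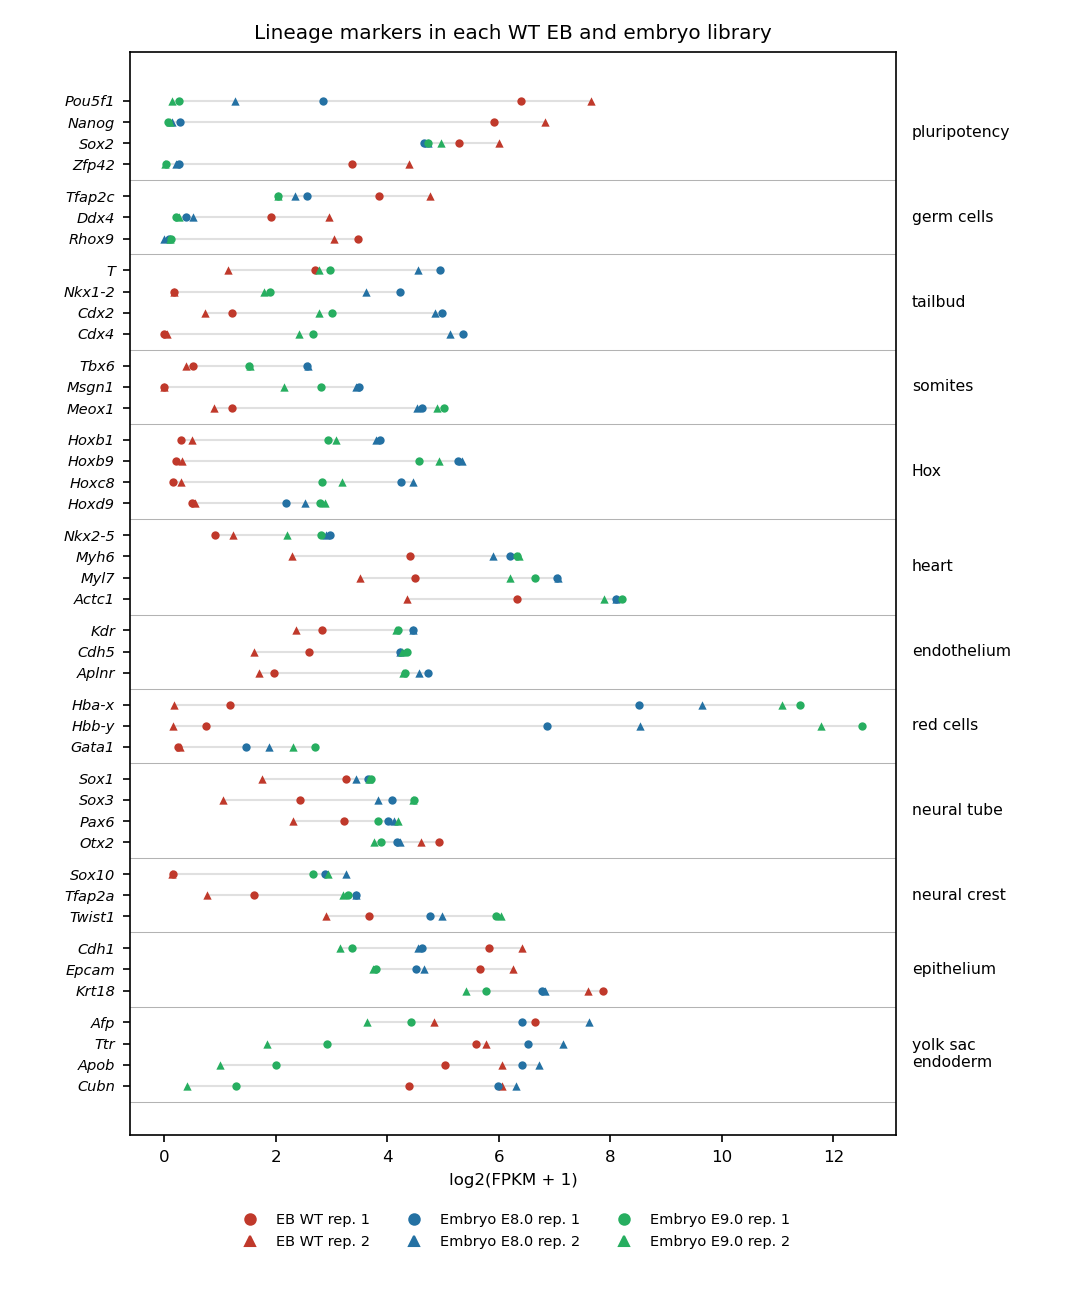
Each point is the log2(FPKM + 1) level of one marker gene in one library, with genes grouped by lineage on the vertical axis and the 2 WT EB, 2 E8.0 and 2 E9.0 libraries told apart by colour and symbol. Pluripotency genes such as Nanog sit to the right in both EB libraries, and Hoxb9, Hoxc8 and the globins sit to the left in the EBs and to the right in the embryos.

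Germ cell genes were higher as well. Of 13 tested members of the 14, 12 were higher in WT EBs and 0 lower (12 and 0 without EB WT 1, 6 and 0 without EB WT 2), with a median log2 difference of 2.07. Ddx4, the germ-line helicase Vasa, had 2.78 and 6.75 FPKM in WT EBs, 0.313 and 0.428 at E8.0 and 0.156 and 0.201 at E9.0 (log2 difference 2.09 ± 0.30 SE, limma adjusted p = 0.0022). Rhox6 and Rhox9, homeobox genes of an X-linked reproductive cluster, differed by log2 3.56 and 3.18. Rhox6 stood at 24.2 and 9.61 FPKM in the EBs and at no more than 0.973 FPKM in any embryo. Kit, the stem cell factor receptor, had 23.8 and 36.8 FPKM in WT EBs, 14.8 and 13.4 at E8.0 and 9.51 and 9.08 at E9.0 (log2 difference 1.30 ± 0.18 SE, limma adjusted p = 0.0019). Prdm1, which specifies germ cells and also acts in endoderm, had 4.69 and 9.23 FPKM in WT EBs, 5.45 and 5.01 at E8.0 and 2.67 and 2.65 at E9.0 and was not called (adjusted p = 0.066 by limma). Fgf5, which marks the primed epiblast after implantation, had 2.44 and 4.11 FPKM in WT EBs, 0.213 and 0.145 at E8.0 and 0.434 and 0.50 at E9.0, a log2 difference of 1.67 with both EB libraries and of 1.39 without EB WT 2, where it was not called (adjusted p = 0.061 by limma). Over the 14 genes of the formative and primed epiblast 5 were higher and 2 lower (4 and 1 without EB WT 1, 1 and 1 without EB WT 2), and their median of -0.11 changed sign to 0.045 without EB WT 1, so the list gave no direction.

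Genes of the streak, the tailbud and the somites were lower. Of 9 tested genes of the primitive streak and early mesoderm 5 were lower and 1 higher (1 and 3 without EB WT 1, 0 and 2 without EB WT 2), with a median of -0.99. T (Brachyury), the T-box factor of the streak and notochord, had 5.47 and 1.19 FPKM in WT EBs, 29.6 and 22.4 at E8.0 and 6.8 and 5.82 at E9.0, so that EB WT 1 lay close to the E9.0 embryos and EB WT 2 below every embryo. The log2 difference of T was -1.89 (adjusted p = 0.0077 by limma) and -1.11 without EB WT 2, where it was not called (adjusted p = 0.12). Msgn1, the presomitic mesoderm factor mesogenin, was listed at 0 in both EB libraries and had 10.2 and 9.84 FPKM at E8.0 and 5.99 and 3.41 at E9.0. Eomes, an early T-box factor, was the member called higher, with 1.61 and 5.98 FPKM in WT EBs, 0.0912 and 0.193 at E8.0 and 0.0342 and 0.048 at E9.0, and its call was lost without EB WT 2 (1.26, adjusted p = 0.058).

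All 15 tailbud and axial progenitor genes were tested, and 14 were lower and 0 higher (0 and 7 without EB WT 1, 0 and 6 without EB WT 2), with a median of -1.89. Cdx4, a caudal homeobox factor that switches on posterior Hox genes, had 0 and 0.0293 FPKM in WT EBs, 39.8 and 33.8 at E8.0 and 5.36 and 4.34 at E9.0 (log2 difference -3.87 ± 0.22 SE, limma adjusted p = 1.4e-04). Cdx2 had 1.33 and 0.656 FPKM in WT EBs, 30.5 and 28 at E8.0 and 6.98 and 5.82 at E9.0 (log2 difference -2.93 ± 0.23 SE, limma adjusted p = 3.5e-04). Nkx1-2, a marker of the neuromesodermal progenitor zone, had 0.124 and 0.12 FPKM in WT EBs, 17.7 and 11.2 at E8.0 and 2.73 and 2.46 at E9.0. In all 3 genes the EBs lay below both stages and the E9.0 embryos below the E8.0 embryos. Cyp26a1, the enzyme that clears retinoic acid from the tailbud, was the member not called, with 12.9 and 16 FPKM in WT EBs, 18.4 and 16.8 at E8.0 and 6.53 and 5.09 at E9.0.

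Of 18 tested somite and paraxial mesoderm genes 16 were lower and 0 higher (0 and 12 without EB WT 1, 0 and 5 without EB WT 2), with a median of -1.47. Meox1, a homeobox factor of the early somite, had 1.32 and 0.845 FPKM in WT EBs, 23.7 and 22.1 at E8.0 and 31.4 and 28.6 at E9.0 (log2 difference -3.72 ± 0.17 SE, limma adjusted p = 7.7e-05), with no overlap between EBs and embryos. Tbx6, which sets paraxial mesoderm apart from neural tissue, had 0.418 and 0.308 FPKM in WT EBs, 4.88 and 4.97 at E8.0 and 1.86 and 1.9 at E9.0 (log2 difference -1.60 ± 0.16 SE, limma adjusted p = 6.8e-04). Pax9, which also marks pharyngeal endoderm, had 4.75 and 2.75 FPKM in WT EBs, 2.83 and 1.72 at E8.0 and 2.39 and 1.96 at E9.0 and was not called.

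The Hox genes, which give cells their position along the axis in the order they lie in 4 clusters, were lower in every cluster. In cluster A 8 of 9 tested genes were lower (0 and 6 without EB WT 1, 0 and 6 without EB WT 2), in cluster B 9 of 9 (0 and 8 without EB WT 1, 0 and 8 without EB WT 2), in cluster C 5 of 6 (0 and 3 without EB WT 1, 0 and 3 without EB WT 2) and in cluster D 4 of 4 (0 and 2 without EB WT 1, 0 and 2 without EB WT 2), and none of the 28 was higher. The medians were -2.0, -2.35, -1.99 and -1.98. Hoxb9, a trunk gene, had 0.159 and 0.251 FPKM in WT EBs, 37.6 and 39.5 at E8.0 and 22.8 and 29.6 at E9.0 (log2 difference -4.76 ± 0.24 SE, limma adjusted p = 9.7e-05). Hoxc8 had 0.114 and 0.234 FPKM in WT EBs, 18 and 21 at E8.0 and 6.1 and 8.05 at E9.0. Hoxa9 had 0.0895 and 0.189 FPKM in WT EBs, 7.83 and 10.3 at E8.0 and 6.74 and 7.4 at E9.0, and no EB value reached that of any embryo. Hoxb2, a gene near the 3' end of its cluster that is expressed up to the hindbrain, had 2.81 and 2.99 FPKM in WT EBs, 20.4 and 19.5 at E8.0 and 16.6 and 15.3 at E9.0, and so stood at a higher FPKM level in the EBs than the trunk genes named here. Hoxb5os, an antisense transcript of the cluster, was listed at 0 in both EBs and had 13.3 and 23.6 FPKM at E8.0 and 10.8 and 13.1 at E9.0. Hoxa13 and Hoxc13 were not called.

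Heart genes were lower, with a wide gap between the 2 EB libraries. Of 15 heart transcription factors 10 were lower and 0 higher (0 and 2 without EB WT 1, 0 and 3 without EB WT 2), with a median of -0.88. Gata5 had 0.353 and 1.14 FPKM in WT EBs, 8.23 and 6.74 at E8.0 and 4.41 and 3.81 at E9.0 (log2 difference -1.95 ± 0.24 SE, limma adjusted p = 0.0014). Tbx5, which patterns the atria and the forelimb, had 0.0999 and 0.726 FPKM in WT EBs, 2.9 and 3.02 at E8.0 and 3.65 and 2.87 at E9.0 (log2 difference -1.57 ± 0.24 SE, limma adjusted p = 0.0025). Gata4, shared by heart and endoderm, had 18.6 and 31.8 FPKM in WT EBs, 19.7 and 18.7 at E8.0 and 11.3 and 7.77 at E9.0 and was not called. Of 21 tested sarcomere and muscle genes 14 were lower and 0 higher (0 and 14 without EB WT 1, 0 and 7 without EB WT 2), with a median of -1.24. Myh6, the atrial myosin heavy chain, had 20.1 and 3.87 FPKM in WT EBs, 72.3 and 58.7 at E8.0 and 79.1 and 80.7 at E9.0 (log2 difference -2.85 ± 0.45 SE, limma adjusted p = 0.003). Nppa, the atrial natriuretic peptide, had 0.532 and 0.0734 FPKM in WT EBs, 3.86 and 4.49 at E8.0 and 21.8 and 15.3 at E9.0 (log2 difference -2.96 ± 0.30 SE, limma adjusted p = 7.0e-04). Myl2, the ventricular light chain, stood at 5.34 and 0 FPKM in the EBs against 20 and 32.4 at E8.0 and 60.8 and 55.4 at E9.0. EB WT 1 held more of all 3 transcripts than EB WT 2, and both lay below every embryo. Acta2, the smooth muscle actin, had 136 and 60.2 FPKM in WT EBs, 115 and 118 at E8.0 and 104 and 88.8 at E9.0 and was not called.

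Most blood vessel genes were lower. Of 18 tested endothelial genes 13 were lower, 2 were higher and 3 were not called (0 and 13 without EB WT 1, 0 and 12 without EB WT 2), with a median of -1.49. Kdr, the VEGF receptor of endothelial progenitors, had 6.07 and 4.16 FPKM in WT EBs, 21.1 and 21 at E8.0 and 17.3 and 16.8 at E9.0 (log2 difference -1.72 ± 0.17 SE, limma adjusted p = 6.1e-04). Cdh5, the endothelial cadherin, had 5.04 and 2.06 FPKM in WT EBs, 17.7 and 17.7 at E8.0 and 19.3 and 18.2 at E9.0 (log2 difference -2.16 ± 0.25 SE, limma adjusted p = 0.0011). Plvap, a protein of endothelial diaphragms, had 2.3 and 2.34 FPKM in WT EBs, 15.3 and 15.8 at E8.0 and 23.3 and 22.8 at E9.0 (log2 difference -2.58 ± 0.19 SE, limma adjusted p = 2.9e-04). The members called higher were Pecam1, which ESCs also express, and Sox17, which marks endoderm as well. Pecam1 had 11.8 and 19.2 FPKM in WT EBs, 6.25 and 7.87 at E8.0 and 10.3 and 9.04 at E9.0. Sox17 had 9.69 and 9.72 FPKM in WT EBs, 5.56 and 4.98 at E8.0 and 3.56 and 3.95 at E9.0, and the call of Sox17 was lost without EB WT 1 (0.98, adjusted p = 0.16) and without EB WT 2 (0.97, adjusted p = 0.2).

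Red cell genes gave the lowest differences of all. Of 19 tested genes of embryonic globins and red cells 17 were lower and 0 higher (0 and 11 without EB WT 1, 0 and 7 without EB WT 2), with a median of -2.45. Hba-x, the embryonic zeta-globin, had 1.25 and 0.121 FPKM in WT EBs, 365 and 794 at E8.0 and 2699.5 and 2157 at E9.0 (log2 difference -9.49 ± 0.57 SE, limma adjusted p = 1.5e-04). Hbb-y, the embryonic epsilon-like globin, had 0.669 and 0.107 FPKM in WT EBs, 115 and 369 at E8.0 and 5808 and 3489 at E9.0 (log2 difference -9.47 ± 0.84 SE, limma adjusted p = 4.9e-04). Hbb-bh1 had 1.86 and 0 FPKM in WT EBs, 395 and 892 at E8.0 and 2708 and 1641 at E9.0 (log2 difference -9.37 ± 0.69 SE, limma adjusted p = 2.9e-04). The E9.0 embryos stood above the E8.0 embryos in all 3, and the EBs at or under 1.86 FPKM. Alas2, the first enzyme of haem synthesis in red cells, Hba-a1, Hemgn, Epb42, Rhag, Hbb-bs and Hbb-bt were listed at 0 in both EB libraries. The adult-type globin Hba-a2 had 0 and 0.447 FPKM in WT EBs, 6.96 and 12.3 at E8.0 and 109.6 and 90 at E9.0, and since Hba-a1 and Hba-a2 are near-identical copies, how reads were split between them is uncertain. Tal1, the factor that starts the blood program, had 0.448 and 0.35 FPKM in WT EBs, 6.31 and 7.02 at E8.0 and 7.63 and 5.81 at E9.0 (log2 difference -2.45 ± 0.23 SE, limma adjusted p = 5.5e-04). Klf1, the red cell Kruppel-like factor, had 0.0795 and 0.115 FPKM in WT EBs, 1.52 and 3.21 at E8.0 and 7.67 and 6.11 at E9.0 (log2 difference -2.21 ± 0.39 SE, limma adjusted p = 0.0047).

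The windows before the RefSeq start sites of 3 of these genes are shown because they hold the short words read by the red cell factors GATA1 and KLF1. Capitals mark GATAAG and CACCC and their reverse complements, and each window is the 250 bases upstream on GRCm38.p6.
Hba-a2 (chr11:32296242-32296491, plus strand): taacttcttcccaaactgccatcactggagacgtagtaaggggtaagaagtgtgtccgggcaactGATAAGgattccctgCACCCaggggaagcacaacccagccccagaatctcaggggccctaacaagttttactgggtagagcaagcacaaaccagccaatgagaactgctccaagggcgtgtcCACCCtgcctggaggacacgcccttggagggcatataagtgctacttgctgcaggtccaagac
Hbb-y (chr7:103853208-103853457, minus strand): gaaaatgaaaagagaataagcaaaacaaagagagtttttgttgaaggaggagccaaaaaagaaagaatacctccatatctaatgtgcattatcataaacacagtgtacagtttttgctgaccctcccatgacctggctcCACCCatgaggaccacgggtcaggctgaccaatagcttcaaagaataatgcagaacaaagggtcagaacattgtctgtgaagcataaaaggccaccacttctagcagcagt
Klf1 (chr8:84901732-84901981, plus strand): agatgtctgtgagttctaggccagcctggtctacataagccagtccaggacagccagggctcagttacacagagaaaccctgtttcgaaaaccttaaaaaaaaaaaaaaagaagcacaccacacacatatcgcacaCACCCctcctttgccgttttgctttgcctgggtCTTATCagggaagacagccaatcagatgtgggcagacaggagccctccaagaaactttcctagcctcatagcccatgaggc
Hba-a2 held GATAAG 185 to 180 bases before the start and CACCC at 170 to 166 and 63 to 59 bases. Hbb-y held CACCC at 111 to 107 bases and no GATAAG, and Klf1 held GATAAG on the minus strand at 81 to 76 bases and CACCC at 114 to 110 bases. Of the 15 red cell genes with a window 9 (60%) held GATAAG, against 2151 of 32851 windows (6.55%). The 60% counts genes with a match in any of their windows and the 6.55% counts single windows, so the shares are not alike. Among the 9, each counted as a gene, were Hba-a1 with its near-identical copy Hba-a2, and Hbb-bs with Hbb-bt. CACCC stood in 52% of all windows, so its presence sets no gene apart, and TATAAA, found in 12.4% of windows, was in none of those printed.

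Of 13 blood progenitor and macrophage genes 7 reached the level needed for testing, and of these 2 were higher and 3 lower (1 and 2 without EB WT 1, 0 and 2 without EB WT 2). Lyl1, a relative of Tal1, had 0.20 and 0.0966 FPKM in WT EBs, 1.95 and 1.92 at E8.0 and 4.22 and 3.85 at E9.0 (log2 difference -1.74 ± 0.17 SE, limma adjusted p = 6.1e-04). Runx1, which starts definitive blood, had 2.92 and 2.65 FPKM in WT EBs, 0.889 and 1.09 at E8.0 and 1.23 and 1.01 at E9.0. It was called with both EB libraries (log2 0.88) but not without EB WT 1 (0.83) or EB WT 2 (0.93). Its level in the single WT ESC library was 4.86 FPKM.

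Lateral plate, limb and kidney genes were lower. Of 16 tested limb and lateral plate genes 12 were lower and 0 higher (0 and 10 without EB WT 1, 0 and 7 without EB WT 2), with a median of -1.36, and of 10 tested kidney and urogenital genes 6 were lower and 0 higher (0 and 5 without EB WT 1, 0 and 3 without EB WT 2), with a median of -1.16. Msx1, a homeobox factor of limb and crest mesenchyme, had 3.5 and 2.94 FPKM in WT EBs, 35.1 and 28.8 at E8.0 and 31 and 29.8 at E9.0 (log2 difference -2.93 ± 0.19 SE, limma adjusted p = 1.8e-04). Prrx1 had 3.89 and 3.1 FPKM in WT EBs, 11.6 and 12.6 at E8.0 and 31.1 and 32.5 at E9.0 (log2 difference -2.21 ± 0.16 SE, limma adjusted p = 2.6e-04). Osr1, a marker of intermediate mesoderm, had 1.0 and 1.49 FPKM in WT EBs, 10.9 and 8.95 at E8.0 and 5.92 and 5.29 at E9.0 (log2 difference -1.92 ± 0.21 SE, limma adjusted p = 9.0e-04). In these 3 the EBs stood below every embryo. Ret, the GDNF receptor of the nephric duct and of enteric neurons, had 0.612 and 0.723 FPKM in WT EBs, 5.84 and 6.13 at E8.0 and 4.14 and 3.67 at E9.0 (log2 difference -1.81 ± 0.17 SE, limma adjusted p = 5.7e-04). It too stood lower in both EBs than in any embryo. Of 10 tested notochord and floor plate genes 3 were lower and 1 higher (0 and 3 without EB WT 1, 0 and 0 without EB WT 2). Shh, their shared signal, had 7.11 and 0.949 FPKM in WT EBs, 7.6 and 7.88 at E8.0 and 7.46 and 8.42 at E9.0, with EB WT 1 near the embryos and EB WT 2 below them, and it was not called.

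**Figure D2:**
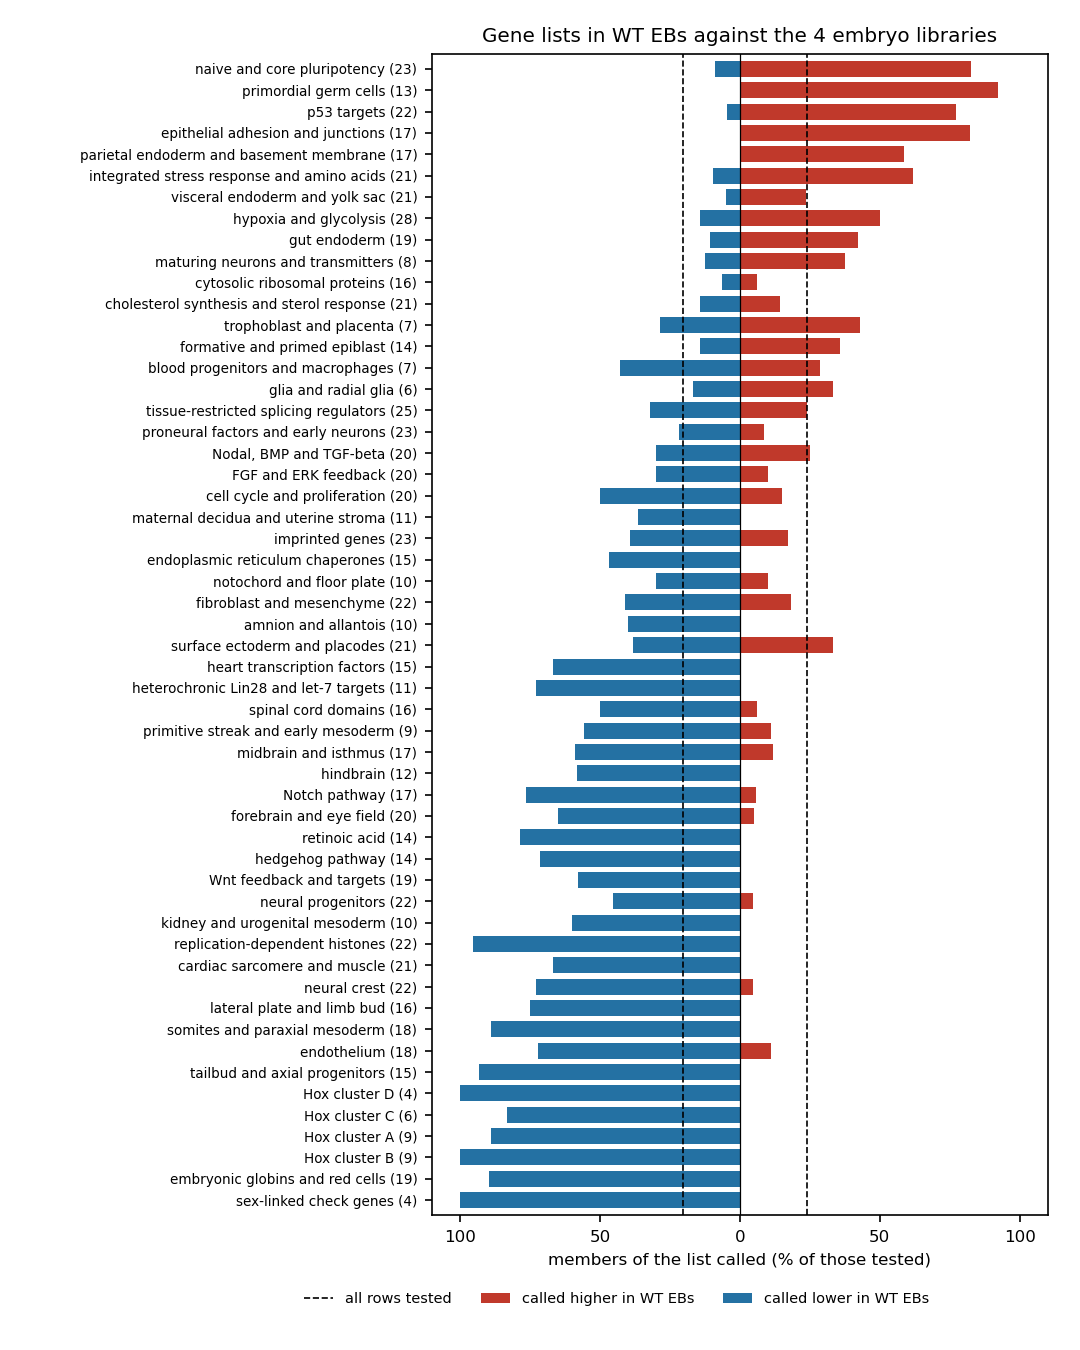
Bars give the share of tested members of each gene list called higher (right) or lower (left) in WT EBs than in the 4 embryo libraries, in percent, with the number tested in brackets and dashed lines at the shares over all rows, 23.9% and 20.3%. Pluripotency, germ cell, p53 and epithelial lists reach furthest to the right, and Hox, tailbud, somite, red cell and histone lists, with the Y-linked check genes, furthest to the left.

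Of 22 neural progenitor genes 10 were lower, 1 was higher and 11 were not called (1 and 6 without EB WT 1, 0 and 1 without EB WT 2), with a median of -1.16. Against E8.0 alone 5 were lower and 1 higher. The summed FPKM of the list was 612.7 in EB WT 1 and 359.4 in EB WT 2, against 607.8 and 629.9 at E8.0 and 981.4 and 1034 at E9.0, so on this sum EB WT 1 was level with E8.0 and EB WT 2 was below it. Vim held the largest part of each sum, with 228 and 123 FPKM in WT EBs, 118 and 138 at E8.0 and 334 and 361 at E9.0. Its level in the single WT ESC library was 228 FPKM. Sox3 lay below every embryo in both EBs, with 4.42 and 1.08 FPKM in WT EBs, 15.9 and 13.2 at E8.0 and 21.3 and 21.1 at E9.0. Sox1, the earliest neural SOX factor, had 8.57 and 2.35 FPKM in WT EBs, 11.6 and 9.84 at E8.0 and 12 and 11.7 at E9.0, so that EB WT 1 was close to the embryos while EB WT 2 was well below, and it was not called (adjusted p = 0.13 by limma). Nes, the intermediate filament nestin, had 11.8 and 6.6 FPKM in WT EBs, 11.5 and 14.1 at E8.0 and 40.8 and 42.1 at E9.0 (log2 difference -1.29 ± 0.30 SE, limma adjusted p = 0.012), so that EB WT 1 lay within the E8.0 range and EB WT 2 below it. Its call was lost without EB WT 2 (-0.91, adjusted p = 0.18). Ncam1, a neural adhesion molecule, was lower in both, with 7.28 and 6.46 FPKM in WT EBs, 22.2 and 18.9 at E8.0 and 19.7 and 17.2 at E9.0 (log2 difference -1.38 ± 0.19 SE, limma adjusted p = 0.0019).

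Regional genes of the brain and spinal cord were lower in all 4 lists. In the forebrain and eye field list 13 of 20 tested genes were lower and 1 higher (0 and 10 without EB WT 1, 0 and 3 without EB WT 2), in the midbrain and isthmus list 10 of 17 and 2 (0 and 6 without EB WT 1, 0 and 2 without EB WT 2), in the hindbrain list 7 of 12 and 0 (0 and 5 without EB WT 1, 0 and 3 without EB WT 2), and in the spinal cord list 8 of 16 and 1 (0 and 7 without EB WT 1, 0 and 3 without EB WT 2). The medians were -1.09, -0.99, -1.01 and -0.97. Dlx5 had 0.258 and 0.208 FPKM in WT EBs, 3.13 and 3.4 at E8.0 and 3.93 and 3.63 at E9.0 (log2 difference -1.87 ± 0.17 SE, limma adjusted p = 5.2e-04). En2, a homeobox factor of the midbrain-hindbrain border, had 0.163 and 0.205 FPKM in WT EBs, 3.29 and 3.1 at E8.0 and 5.12 and 7.35 at E9.0 (log2 difference -2.21 ± 0.32 SE, limma adjusted p = 0.0024). Nkx2-9, a factor beside the floor plate, had 1.42 and 0.712 FPKM in WT EBs, 7.07 and 6.09 at E8.0 and 7.77 and 8.03 at E9.0 (log2 difference -2.01 ± 0.20 SE, limma adjusted p = 7.0e-04). Otx2, the anterior factor that epiblast also expresses, was the gene called higher in the forebrain list, with 29.2 and 23.4 FPKM in WT EBs, 17 and 17.8 at E8.0 and 13.7 and 12.5 at E9.0, and the call was lost without EB WT 1 (adjusted p = 0.099) and without EB WT 2 (adjusted p = 0.054). The hindbrain guidance receptors Epha4 and Epha7 were not called, with 22.6 and 14.5 FPKM in WT EBs, 28.6 and 23.7 at E8.0 and 21.3 and 21.3 at E9.0 for Epha4 and 24.5 and 7.44 FPKM in WT EBs, 13.3 and 13 at E8.0 and 15.1 and 15 at E9.0 for Epha7.

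The list of newly born neurons had a median between the stages. Of 23 tested proneural and early neuron genes 2 were higher and 5 lower than in the 4 embryo libraries (2 and 5 without EB WT 1, 0 and 0 without EB WT 2). Their median log2 difference was 0.22 against E8.0, where 6 were higher and 3 lower, and -0.84 against E9.0, where 2 were higher and 13 lower. Over all rows 21.8% were called higher and 18.0% lower against E8.0, and 24.7% and 21.8% against E9.0. The list's counts against E8.0 were near the shares over all rows. Dcx, Nhlh1 and Neurod4 are given as examples chosen with their values known. Dcx, the microtubule protein doublecortin of migrating neurons, had 1.98 and 0.674 FPKM in WT EBs, 0.0659 and 0.0993 at E8.0 and 2.16 and 2.4 at E9.0. Nhlh1 had 2.33 and 0.529 FPKM in WT EBs, 0.0671 and 0.148 at E8.0 and 2.57 and 2.94 at E9.0. Neurod4, a proneural factor, had 1.83 and 0.735 FPKM in WT EBs, 0.0139 and 0.0823 at E8.0 and 2.65 and 3.31 at E9.0. In all 3 both EB libraries stood above both E8.0 embryos and below both E9.0 embryos, EB WT 1 nearer to E9.0. Stmn2, a growth cone protein, had 17.4 and 17 FPKM in WT EBs, 10.9 and 9.0 at E8.0 and 6.17 and 5.76 at E9.0 (log2 difference 1.06 ± 0.17 SE, limma adjusted p = 0.0033), but was not called without EB WT 2 (1.08, adjusted p = 0.063). Neurog2, by contrast, had 0.45 and 0.102 FPKM in WT EBs, 0.993 and 1.44 at E8.0 and 4.77 and 5.29 at E9.0, a log2 difference of -1.53 with both EB libraries and -1.33 without EB WT 2, which was not called (adjusted p = 0.065). Of 20 genes of maturing neurons and transmitters 8 were tested, and 3 were higher and 1 lower (2 and 1 without EB WT 1, 0 and 0 without EB WT 2). Nnat, which encodes neuronatin, was the one lower, with 64.8 and 28.8 FPKM in WT EBs, 73.1 and 76.5 at E8.0 and 143 and 129 at E9.0 (log2 difference -1.20 ± 0.32 SE, limma adjusted p = 0.02).

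Neural crest genes were lower. Of 22 tested 16 were lower and 1 higher (0 and 13 without EB WT 1, 0 and 9 without EB WT 2), with a median of -1.33. Sox10, the factor of migrating crest, had 0.107 and 0.104 FPKM in WT EBs, 6.33 and 8.51 at E8.0 and 5.35 and 6.63 at E9.0 (log2 difference -2.79 ± 0.26 SE, limma adjusted p = 5.5e-04). Tfap2a had 2.05 and 0.69 FPKM in WT EBs, 9.78 and 9.78 at E8.0 and 8.78 and 8.18 at E9.0 (log2 difference -2.16 ± 0.23 SE, limma adjusted p = 8.5e-04). Snai1, which drives the release of crest and mesoderm cells from epithelia, had 2.05 and 1.73 FPKM in WT EBs, 11 and 11.8 at E8.0 and 14.3 and 15.5 at E9.0 (log2 difference -2.28 ± 0.19 SE, limma adjusted p = 3.8e-04). None of the 3 overlapped with the embryos. Erbb3, which also acts in epithelia, was the member called higher, with 8.51 and 9.34 FPKM in WT EBs, 6.49 and 6.68 at E8.0 and 6.39 and 6.48 at E9.0. Olig1, a glial lineage factor, had 3.03 and 5.87 FPKM in WT EBs, 0.132 and 0.17 at E8.0 and 0.492 and 0.438 at E9.0 (log2 difference 2.02 ± 0.22 SE, limma adjusted p = 9.0e-04). Its level in the single WT ESC library was 4.21 FPKM. Olig1 was 1 of 2 higher among 6 tested glial genes, of which 1 was lower.

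Epithelial genes were higher in WT EBs. Of 17 adhesion and junction genes 14 were higher and 0 lower (10 and 0 without EB WT 1, 7 and 0 without EB WT 2), with a median of 1.16. Cdh1, the epithelial cadherin, had 55.6 and 84 FPKM in WT EBs, 23.6 and 22.4 at E8.0 and 9.28 and 7.91 at E9.0 (log2 difference 2.19 ± 0.23 SE, limma adjusted p = 8.3e-04). Epcam had 49.6 and 75 FPKM in WT EBs, 21.7 and 24.2 at E8.0 and 12.9 and 12.4 at E9.0 (log2 difference 1.78 ± 0.17 SE, limma adjusted p = 6.2e-04). Cldn4, a tight junction claudin, had 36.6 and 47.7 FPKM in WT EBs, 13.8 and 12.1 at E8.0 and 10.9 and 9.29 at E9.0 (log2 difference 1.78 ± 0.18 SE, limma adjusted p = 6.5e-04). Both EBs stood above all embryos, and E8.0 embryos above E9.0 embryos, in all 3. Dsp, Grhl2 and Rab25 were not called. Of 21 tested genes of surface ectoderm and placodes 7 were higher and 8 lower (4 and 10 without EB WT 1, 4 and 3 without EB WT 2). The higher ones were the keratins Krt8 and Krt18, with Epcam, Cldn4, Esrp1, Perp and the transcription factor Tfap2c. Krt8 had 141 and 137 FPKM in WT EBs, 96.1 and 92.3 at E8.0 and 48.5 and 35.8 at E9.0, and its call was lost without EB WT 1 or EB WT 2. Tfap2c had 13.4 and 26.1 FPKM in WT EBs, 4.85 and 4.04 at E8.0 and 3.09 and 3.12 at E9.0, a log2 difference of 2.07. The lower ones included Tfap2a, Dlx3, Dlx5, Eya2, Pax8 and Sox10, transcriptional regulators of ectoderm, placodes or crest, and the ligand Wnt6. Trp63, which marks the future epidermis, had 1.94 and 0.168 FPKM in WT EBs, 1.29 and 1.43 at E8.0 and 3.22 and 2.76 at E9.0 and was not called.

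The median of the visceral endoderm list put the EBs between the stages. Of 21 tested visceral endoderm and yolk sac genes 5 were higher and 1 lower than in the 4 embryo libraries (3 and 0 without EB WT 1, 1 and 0 without EB WT 2). Their median was -1.02 against E8.0 and 2.21 against E9.0. Apob, an apolipoprotein of the yolk sac, had 31.7 and 65.4 FPKM in WT EBs, 83.8 and 105 at E8.0 and 3.02 and 0.985 at E9.0, a log2 difference of -1.02 from E8.0 (limma adjusted p = 0.2) and of 4.04 from E9.0 (adjusted p = 0.002). Ttr, transthyretin, had 46.9 and 53.2 FPKM in WT EBs, 90.8 and 142 at E8.0 and 6.52 and 2.59 at E9.0, a log2 difference of -1.17 from E8.0 (limma adjusted p = 0.15) and of 3.29 from E9.0 (adjusted p = 0.0045). Cubn, an endocytic receptor, had 19.9 and 65.3 FPKM in WT EBs, 62.3 and 78.1 at E8.0 and 1.44 and 0.322 at E9.0. In all 3 both EBs stood above both E9.0 embryos, and in Apob and Ttr both stood below the E8.0 embryos. Lrp2, the partner of cubilin, had 39.9 and 31.6 FPKM in WT EBs, 29.2 and 28 at E8.0 and 11.6 and 11.5 at E9.0 (log2 difference 0.92 ± 0.12 SE, limma adjusted p = 0.0015). Slc2a2, a glucose transporter of liver and yolk sac, was the member called lower, with 0.861 and 0.776 FPKM in WT EBs, 15.7 and 21.9 at E8.0 and 0.672 and 0.0721 at E9.0, and was not called without EB WT 1 (adjusted p = 0.14) or EB WT 2 (adjusted p = 0.18). Over the list 14 of 21 genes were higher than at E9.0 and 6 lower than at E8.0. The summed FPKM of the list was 649.9 and 815 in the EBs, 879.7 and 1363 at E8.0 and 119.9 and 84.2 at E9.0, and the part of yolk sac left on the embryos was not tested.

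Of 19 tested gut endoderm genes 8 were higher and 2 lower (5 and 2 without EB WT 1, 2 and 1 without EB WT 2), with a median of 0.70. Against E8.0 alone 2 of the 19 were higher and 1 lower, with a median of 0.16, where 21.8% of all rows were called higher. Against E9.0 alone 10 were higher and 2 lower, with a median of 1.11. Trh, a hormone precursor that marks early definitive endoderm in the mouse, had 21.8 and 39 FPKM in WT EBs, 5.31 and 3.99 at E8.0 and 2.5 and 2.62 at E9.0 (log2 difference 2.76 ± 0.25 SE, limma adjusted p = 5.4e-04). Foxa2, a factor of endoderm and floor plate, had 10.1 and 7.9 FPKM in WT EBs, 5.93 and 6.5 at E8.0 and 4.05 and 4.29 at E9.0, and its call was lost without EB WT 1 (adjusted p = 0.16) or EB WT 2 (adjusted p = 0.079). Nkx2-1, of the thyroid, lung and ventral forebrain, had 0.316 and 0.0763 FPKM in WT EBs, 0.477 and 0.678 at E8.0 and 3.1 and 2.56 at E9.0, a log2 difference of -1.04 that was not called without EB WT 2 (-0.90, adjusted p = 0.12). Cdx2, given above, was the other member called lower. Of 17 parietal endoderm and basement membrane genes 10 were higher and 0 lower (5 and 0 without EB WT 1, 2 and 0 without EB WT 2), with a median of 0.95. Sparc, a matrix glycoprotein abundant in parietal endoderm, had 249 and 223 FPKM in WT EBs, 63.5 and 68.7 at E8.0 and 87.6 and 70.2 at E9.0 (log2 difference 1.70 ± 0.22 SE, limma adjusted p = 0.0017). Srgn had 20.3 and 48.8 FPKM in WT EBs, 0.323 and 0.479 at E8.0 and 0.221 and 0.225 at E9.0 (log2 difference 4.64 ± 0.29 SE, limma adjusted p = 1.7e-04). Of 18 trophoblast and placenta genes 7 were tested, and 3 were higher and 2 lower (1 and 1 without EB WT 1, 1 and 1 without EB WT 2). The placental hormone genes Prl3d1, Prl2c2 and Prl3b1 were not among those tested.

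Genes of mesenchyme and of maternal decidua were also measured. Of 22 tested fibroblast and mesenchyme genes 4 were higher and 9 lower (1 and 6 without EB WT 1, 1 and 2 without EB WT 2), with a median of -0.61. Against E8.0 alone 5 were higher and 4 lower, with a median of -0.11, near the shares over all rows, 21.8% and 18.0%. Against E9.0 alone 3 were higher and 9 lower, with a median of -0.89. Those higher than in the 4 embryo libraries were Col6a1, Col6a3, Thy1 and S100a6. S100a6, a calcium-binding protein, had 32.1 and 15 FPKM in WT EBs, 5.66 and 4.48 at E8.0 and 8.34 and 7.59 at E9.0. Col1a1, the main fibrillar collagen, had 8.03 and 8.32 FPKM in WT EBs, 9.74 and 19.2 at E8.0 and 96.6 and 63.2 at E9.0, so that both EBs held less than any embryo, though the call was lost without EB WT 1 (adjusted p = 0.15) or EB WT 2 (adjusted p = 0.18). Pdgfrb had 3.83 and 2.02 FPKM in WT EBs, 11.6 and 10.8 at E8.0 and 16.1 and 17.3 at E9.0 (log2 difference -1.94 ± 0.22 SE, limma adjusted p = 9.5e-04). Of 11 tested decidua genes 4 were lower and 0 higher (0 and 2 without EB WT 1, 0 and 2 without EB WT 2). Prl8a2, a decidual prolactin, was listed at 0 in the EBs and at E9.0 and had 1.61 and 1.85 FPKM at E8.0. Of 10 tested amnion and allantois genes 4 were lower and 0 higher (0 and 2 without EB WT 1, 0 and 0 without EB WT 2). The part of feeder or maternal RNA in the results was not tested.

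Programs that follow cell state differed as well. Of 22 tested p53 targets, genes that p53 switches on after DNA damage or other stress, 17 were higher in WT EBs and 1 lower (13 and 0 without EB WT 1, 13 and 1 without EB WT 2), with a median of 1.31. Cdkn1a, the cell cycle inhibitor p21, had 62.9 and 54.4 FPKM in WT EBs, 5.55 and 5.42 at E8.0 and 7.29 and 7.16 at E9.0 (log2 difference 3.03 ± 0.11 SE, limma adjusted p = 4.4e-05). Trp53inp1 had 60.1 and 75.2 FPKM in WT EBs, 3.51 and 3.92 at E8.0 and 4.63 and 3.64 at E9.0 (log2 difference 3.80 ± 0.20 SE, limma adjusted p = 1.2e-04). Both are switched on directly by p53, and neither overlapped between EBs and embryos. Ccng1, cyclin G1, had 82.6 and 61.5 FPKM in WT EBs, 10.6 and 10.7 at E8.0 and 13.5 and 11.6 at E9.0 (log2 difference 2.53 ± 0.16 SE, limma adjusted p = 1.7e-04). Mdm2, which marks p53 for degradation, had 77 and 69.6 FPKM in WT EBs, 31.5 and 32.4 at E8.0 and 28.3 and 28.5 at E9.0 (log2 difference 1.25 ± 0.10 SE, limma adjusted p = 3.5e-04). In these 4 both EB libraries stood above all embryos and close to each other. Over the list both EBs stood above all embryos in 17 of the 22 tested members, against 34.4% of all rows. The member called lower was Trp53 itself, with 59.2 and 78 FPKM in WT EBs, 114 and 105 at E8.0 and 107 and 108 at E9.0 and a log2 difference of -0.67, which was not called without EB WT 1 (adjusted p = 0.095).

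Amino acid stress genes, targets of the factor ATF4, followed. Of 21 tested 13 were higher and 2 lower (7 and 2 without EB WT 1, 5 and 1 without EB WT 2), with a median of 0.76. Asns, asparagine synthetase, had 208 and 234 FPKM in WT EBs, 31.8 and 33.9 at E8.0 and 54.2 and 50.7 at E9.0 (log2 difference 2.38 ± 0.11 SE, limma adjusted p = 8.2e-05). Slc7a3, a transporter of arginine and lysine that ESCs express, had 17.4 and 20.1 FPKM in WT EBs, 3.13 and 2.3 at E8.0 and 1.68 and 1.45 at E9.0 (log2 difference 2.68 ± 0.23 SE, limma adjusted p = 4.6e-04). Chac1, which degrades glutathione, had 3.62 and 4.21 FPKM in WT EBs, 0.446 and 0.30 at E8.0 and 0.352 and 0.35 at E9.0 (log2 difference 1.85 ± 0.18 SE, limma adjusted p = 6.4e-04). Psat1 and Atf4 were not called, and Shmt2, a mitochondrial enzyme of one-carbon metabolism, was lower, with 31.1 and 33.6 FPKM in WT EBs, 58.1 and 56.3 at E8.0 and 59.9 and 57.5 at E9.0 (log2 difference -0.82 ± 0.11 SE, limma adjusted p = 0.0019).

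Among 28 tested genes of hypoxia and glycolysis 14 were higher and 4 lower (10 and 0 without EB WT 1, 4 and 0 without EB WT 2), with a median of 0.72. The higher ones included targets of the hypoxia factor HIF1 outside glycolysis. Ndrg1 had 18.1 and 21.2 FPKM in WT EBs, 2.45 and 3.2 at E8.0 and 4.12 and 2.69 at E9.0 (log2 difference 2.34 ± 0.31 SE, limma adjusted p = 0.0017). Vegfa, the growth factor of blood vessels, had 61.9 and 53.2 FPKM in WT EBs, 33 and 33.7 at E8.0 and 25.8 and 25.9 at E9.0 (log2 difference 0.94 ± 0.13 SE, limma adjusted p = 0.0019). P4ha1, a collagen prolyl hydroxylase, had 77.4 and 77.5 FPKM in WT EBs, 34.3 and 35.6 at E8.0 and 29.8 and 24.6 at E9.0 (log2 difference 1.30 ± 0.15 SE, limma adjusted p = 0.0012). The 4 lower ones were the glycolytic genes Pfkl, Pgam1, Pkm and Ldha, and none of the 4 calls held without EB WT 1 or without EB WT 2. Ldha, lactate dehydrogenase, had 571 and 569 FPKM in WT EBs, 1206 and 1228 at E8.0 and 967 and 845 at E9.0. Gapdh and Pgk1 were not called.

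Histone genes of the cell cycle were lower. Of 22 replication-dependent histone genes 21 were lower and 0 higher (0 and 12 without EB WT 1, 0 and 9 without EB WT 2), with a median of -1.23. Hist2h4 had 47.8 and 52.8 FPKM in WT EBs, 128 and 126 at E8.0 and 248 and 242 at E9.0 (log2 difference -1.79 ± 0.10 SE, limma adjusted p = 1.4e-04). Hist1h2ac had 79.6 and 84.1 FPKM in WT EBs, 162 and 179 at E8.0 and 261 and 242 at E9.0 (log2 difference -1.33 ± 0.13 SE, limma adjusted p = 6.1e-04). Both were roughly as high in one EB library as in the other and higher at E9.0 than at E8.0. Of 20 tested cell cycle genes 3 were higher and 10 lower (0 and 3 without EB WT 1, 0 and 1 without EB WT 2), with a median of -0.35. Ccne1, cyclin E1, had 15.5 and 22.2 FPKM in WT EBs, 45.3 and 43.1 at E8.0 and 44.9 and 42.6 at E9.0 (log2 difference -1.20 ± 0.14 SE, limma adjusted p = 0.0012). Cdk1 had 159 and 169 FPKM in WT EBs, 179 and 153 at E8.0 and 167 and 158 at E9.0 and was not called. For 15 of the 20 the 95% interval lay within 2-fold.

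Ribosomal protein and cholesterol genes differed little, and a part of the endoplasmic reticulum chaperones was lower. Of 16 tested ribosomal protein genes 1 was higher and 1 lower (0 and 0 without EB WT 1, 0 and 0 without EB WT 2), and all 16 intervals lay within 2-fold. Of 21 tested cholesterol synthesis and sterol response genes 3 were higher and 3 lower (0 and 2 without EB WT 1, 0 and 1 without EB WT 2), and 15 intervals lay within 2-fold. Of 15 tested endoplasmic reticulum chaperone genes 7 were lower and 0 higher (0 and 5 without EB WT 1, 0 and 5 without EB WT 2), with a median of -0.44. Hspa5, the chaperone BiP, had 166 and 182 FPKM in WT EBs, 349 and 362 at E8.0 and 317 and 284 at E9.0 (log2 difference -0.90 ± 0.14 SE, limma adjusted p = 0.0027). Hyou1 had 41.8 and 47.8 FPKM in WT EBs, 123 and 109 at E8.0 and 87.3 and 88.9 at E9.0 (log2 difference -1.16 ± 0.13 SE, limma adjusted p = 8.7e-04).

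Signalling genes were lower in most pathways, and 5 genes of the Nodal pathway were higher. In the Nodal, BMP and TGF-beta list 5 of 20 tested genes were higher and 6 lower (5 and 1 without EB WT 1, 3 and 0 without EB WT 2). The 5 were the ligand Nodal, its inhibitors Lefty1 and Lefty2 and its co-receptors Tdgf1 and Cfc1. The share of this list called higher was near the 23.9% over all rows. The single WT ESC library held 25.6 FPKM of Nodal, 42.3 of Lefty2 and 326 of Tdgf1, with 3.94 of Lefty1 and 0 of Cfc1. Tdgf1 is also given above with the pluripotency genes. Nodal had 4.07 and 11.6 FPKM in WT EBs, 0.16 and 0.0675 at E8.0 and 0.105 and 0.0462 at E9.0 (log2 difference 2.87 ± 0.31 SE, limma adjusted p = 8.5e-04). Lefty1 had 5.64 and 12 FPKM in WT EBs, 0.0994 and 0.239 at E8.0 and 0.13 and 0.211 at E9.0 (log2 difference 2.99 ± 0.27 SE, limma adjusted p = 5.3e-04).

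Of 14 tested retinoic acid genes 11 were lower and 0 higher (0 and 5 without EB WT 1, 0 and 4 without EB WT 2), with a median of -1.14. Aldh1a2, the enzyme that makes most retinoic acid in the embryo at these stages, had 0.599 and 0.755 FPKM in WT EBs, 44.1 and 34.3 at E8.0 and 21.6 and 19.7 at E9.0 (log2 difference -4.13 ± 0.23 SE, limma adjusted p = 1.4e-04). Stra6, a retinol transporter, had 4.06 and 2.15 FPKM in WT EBs, 17 and 16.5 at E8.0 and 20.9 and 24.1 at E9.0 (log2 difference -2.35 ± 0.31 SE, limma adjusted p = 0.0017). Cyp26c1, an enzyme that degrades retinoic acid, had 0.481 and 1.43 FPKM in WT EBs, 20.4 and 13.1 at E8.0 and 7.76 and 12.2 at E9.0 (log2 difference -2.85 ± 0.43 SE, limma adjusted p = 0.0026). Of 19 tested Wnt feedback genes and targets 11 were lower and 0 higher (0 and 6 without EB WT 1, 0 and 6 without EB WT 2), with a median of -1.15, of 14 hedgehog genes 10 and 0 (0 and 6 without EB WT 1, 0 and 1 without EB WT 2), with a median of -1.14, and of 17 Notch genes 13 and 1 (0 and 9 without EB WT 1, 0 and 3 without EB WT 2), with a median of -1.02. Axin2, a general feedback target of Wnt, had 9.19 and 6.25 FPKM in WT EBs, 33.2 and 32.8 at E8.0 and 29.4 and 35.6 at E9.0 (log2 difference -1.97 ± 0.19 SE, limma adjusted p = 5.7e-04). Sufu, an inhibitor of hedgehog signalling, had 12.1 and 8.6 FPKM in WT EBs, 29.2 and 27.1 at E8.0 and 26.4 and 25 at E9.0 (log2 difference -1.32 ± 0.18 SE, limma adjusted p = 0.0019). Dll3, a Notch ligand of the somites, had 1.65 and 1.85 FPKM in WT EBs, 8.31 and 9.73 at E8.0 and 9.02 and 9.37 at E9.0 (log2 difference -1.88 ± 0.28 SE, limma adjusted p = 0.0024). Each of these 3 lay lower in both EBs than in any embryo. In the FGF and ERK list 2 of 20 tested genes were higher and 6 lower (3 and 1 without EB WT 1, 1 and 1 without EB WT 2). Fgf4, a ligand of pluripotent cells, had 18.1 and 44.3 FPKM in WT EBs, 1.59 and 1.16 at E8.0 and 0.365 and 0.34 at E9.0 (log2 difference 4.04 ± 0.30 SE, limma adjusted p = 2.9e-04). Fgf17 had 0.643 and 0.794 FPKM in WT EBs, 8.36 and 8.52 at E8.0 and 4.9 and 4.42 at E9.0 (log2 difference -2.09 ± 0.19 SE, limma adjusted p = 5.2e-04). The receptor Fgfr1 had 55.7 and 45.9 FPKM in WT EBs, 57.3 and 51.4 at E8.0 and 55.8 and 56.3 at E9.0 and was not called.

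**Figure D3:**
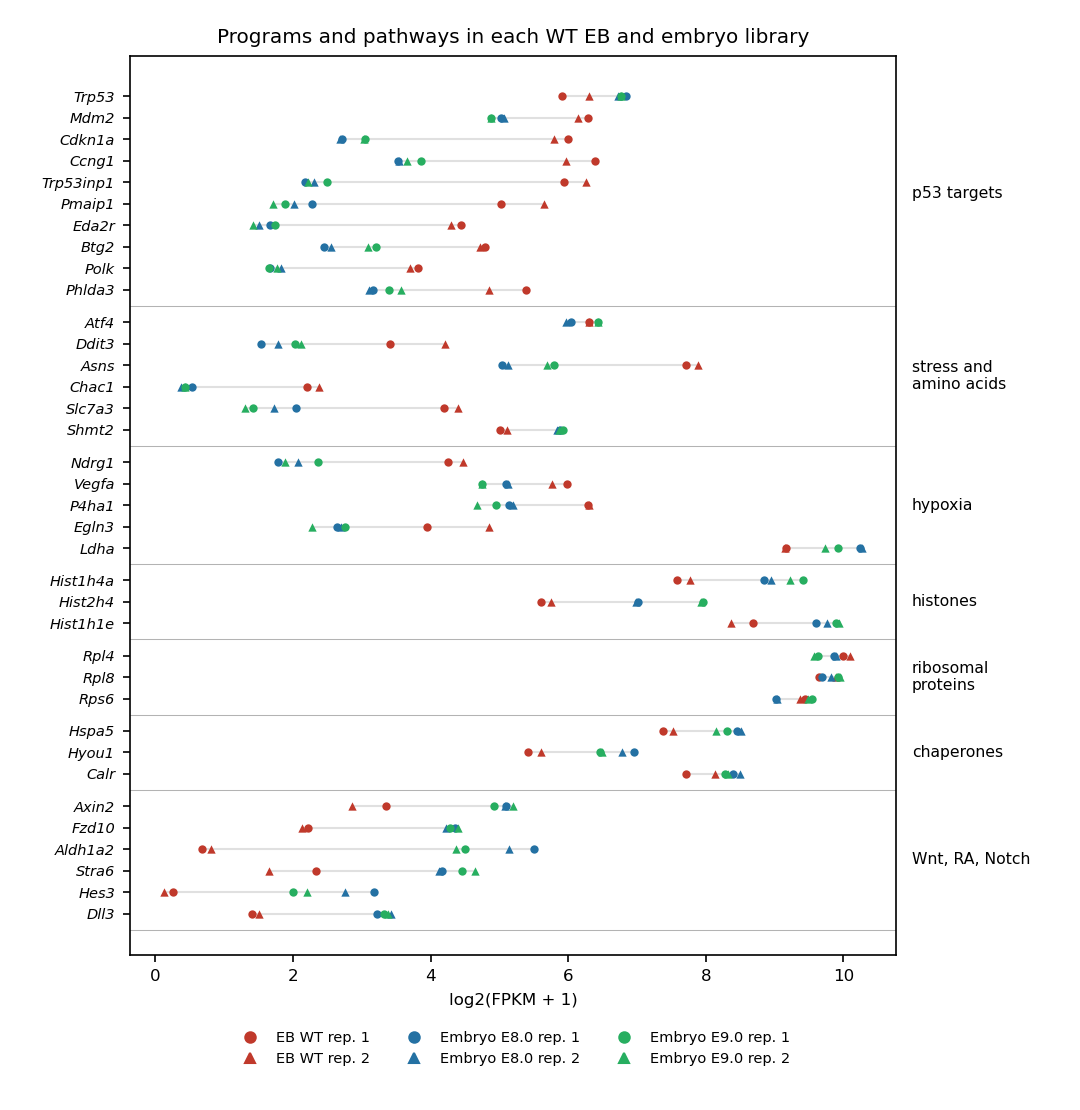
Each point is the log2(FPKM + 1) level of one gene of a program or pathway in one library, with genes grouped by program on the vertical axis and the 2 WT EB, 2 E8.0 and 2 E9.0 libraries told apart by colour and symbol. The p53 targets Cdkn1a and Trp53inp1 sit to the right in both EBs, and Aldh1a2 sits near 0 in the EBs and to the right in the embryos.

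To place the EBs between the stages, rows called between E9.0 and E8.0 and at least 2-fold apart were used, 315 higher at E9.0 (2.08% of rows) and 266 lower (1.75%). These numbers depend on the weights that the fit gave the embryo libraries, and without weights they were 121 and 135. Of the 315, the EB mean lay between the stages in 144, beyond the E8.0 side in 130 and beyond the E9.0 side in 41. Of the 266 it lay between in 114, beyond the E8.0 side in 113 and beyond the E9.0 side in 39. The mean was nearer E9.0 than E8.0 in 91 of the 315 and in 88 of the 266. The median absolute log2 difference over all rows was 0.478 between the EB mean and E8.0, 0.537 between the EB mean and E9.0 and 0.198 between the stages, so the EBs were farther from either stage than the stages from each other. Across rows, which are not independent replicates, Pearson's r was 0.884 to 0.906 between EB WT 1 and the embryo libraries, 0.841 to 0.867 for EB WT 2, 0.95 between the EBs and 0.964 to 0.991 among the embryos.

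**Figure D4:**
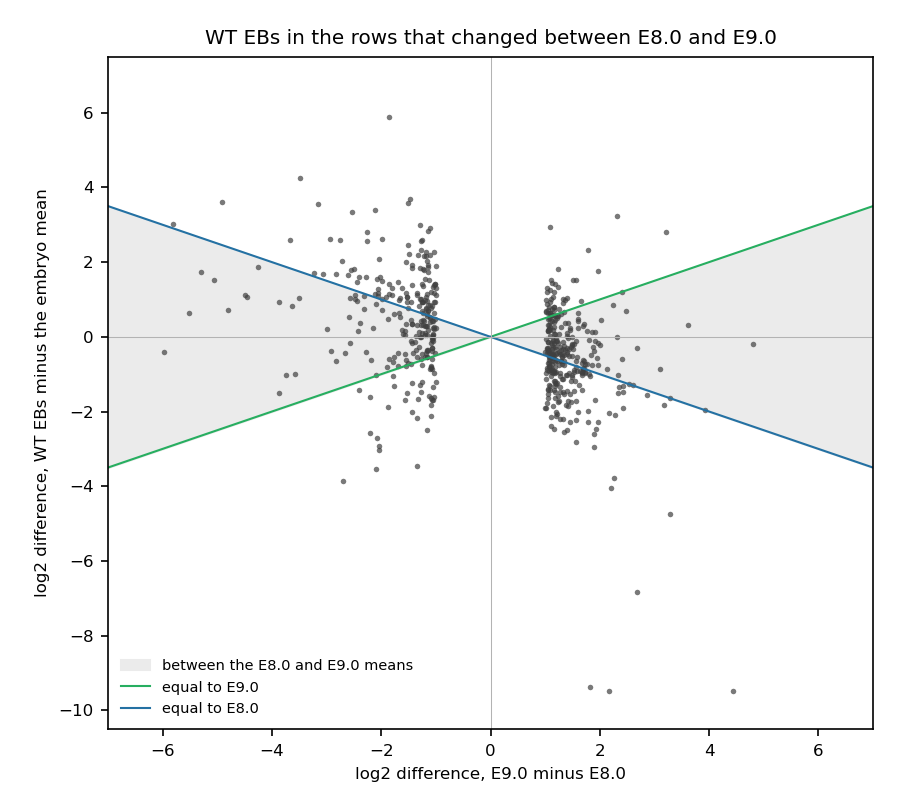
Each point is a row called at least 2-fold apart between the embryo stages, with the log2 difference of E9.0 minus E8.0 on the horizontal axis and of WT EBs minus the mean of the stages on the vertical axis. Rows in the grey wedge have an EB mean between the stages (144 of 315 rising and 114 of 266 falling rows), and those outside it past the blue line lie beyond E8.0.

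The position differed by lineage. All 15 red cell genes that changed between stages rose, and in 14 of them the EBs lay beyond E8.0. All 20 visceral endoderm genes that changed fell, and the EBs lay between the stages in 16 and beyond E8.0 in 4. Of 13 proneural genes, all of which rose, the EBs lay between in 10 and beyond E8.0 in 3. Of 8 tailbud genes, all of which fell, the EBs lay beyond E9.0 in 7, and of 6 epithelial genes that fell they lay beyond E8.0 in 5. The lists therefore do not place the EBs at a single stage.

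**Figure D5:**
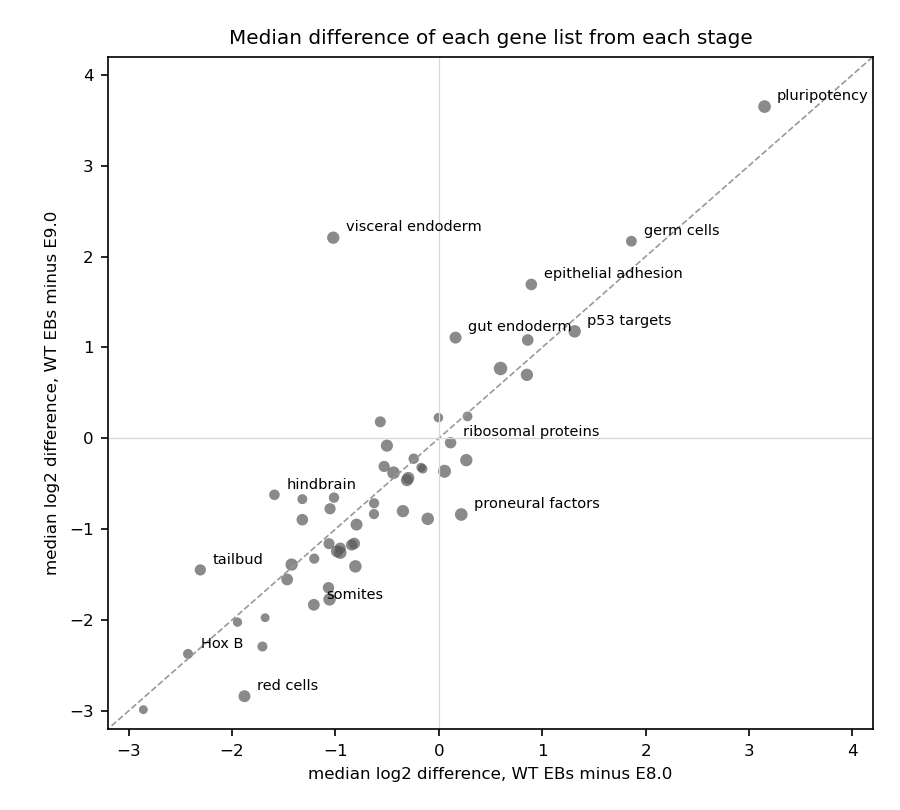
Each point is a gene list, placed by the median log2 difference of its tested members in WT EBs minus E8.0 (horizontal) and minus E9.0 (vertical), with a dashed line where both are equal. Both axes share the EB libraries; visceral endoderm stands apart at -1.02 and 2.21, proneural factors lie at 0.22 and -0.84, and pluripotency at 3.15 and 3.65.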

How the data were processed

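Paired-end RNA-seq of ribosome-depleted RNA from WT EBs and whole WT embryos was used. The authors trimmed reads with Cutadapt, aligned them with STAR 2.5.2b to GRCm38 with GENCODE M11, and estimated abundance with Cufflinks 2.2.1. The deposited values are FPKM, 1 column per library, and any further scaling between libraries is not given in the sources used here. The table held 46955 rows, of which 15741 were 0 throughout and 1062 joined several gene names. Depth was recovered from the FPKM steps of 2579 long genes. Since FPKM are not counts, log2(FPKM + 1) was fitted in limma 3.58.1 (R 4.3.3) with an intensity trend and with weights by material (0.428 for EBs, 2.34 for embryos), 4 residual degrees of freedom, for EB WT, EB KO, E8.0 and E9.0, where EB KO, the Strap-/- EBs, served only to estimate the spread of EBs. The contrast is the WT EB mean minus the mean of the 2 stage means. Rows with at least 1 FPKM in at least 2 of 8 libraries were tested, and p-values were adjusted by Benjamini-Hochberg. The fit was tested on simulated data with few changed genes, where it nearly always gave the right sign but let through a larger share of false calls than the threshold names, so single calls near the threshold are uncertain.

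The gene lists and tests were chosen with earlier results of these data known. Genes to be named were the 15 highest and 15 lowest differences, the first 4 members and the 8 lowest p of each list, and the 10 leading genes present on one side only. Only a part of these is printed here, and that part was not set by the rule. Beyond that rule Cdk1, Cubn, Cyp26a1, Dcx, Epha4, Epha7, Erbb3, Fgfr1, Klf1, Neurod4, Nhlh1, Pax9, Pecam1, Vim, the mitochondrial rows and other members given by name only were picked with their values in view. As alternatives the fit was run with no weights, on the 6 WT libraries alone, with 0.1 added in place of 1, unfiltered, with a minimum of 5 FPKM, with quantile, median and common-total scaling, with a replicate block, and with each library left out. Items withheld for evaluation are not reported here. Upstream sequences are RefSeq's on GRCm38.p6.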

Additional observations from a re-analysis of the deposited data

Results flagged for a closer look

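In 12 rows WT EBs were called lower than one embryo stage and higher than the other (limma, Benjamini-Hochberg adjusted p under 0.05 in each contrast), and 10 of these carried a single gene name. The contrasts share the EB libraries. The log2 difference between the stages, E9.0 minus E8.0, is given for each. It was itself called in all 10, which largely follows from how these rows were chosen and adds no support.

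In 7 genes the EBs lay below E8.0 and above E9.0. Phlda2, an imprinted growth restrictor of the placenta, had 17.4 and 12.7 FPKM in WT EBs, 62.4 and 69 at E8.0 and 7.66 and 9.13 at E9.0, with -2.83 between the stages. Slc39a5, a zinc transporter, had 1.63 and 2.02 FPKM in WT EBs, 6.1 and 7.27 at E8.0 and 0.358 and 0.211 at E9.0, with -2.58. Vil1, the microvillus protein villin, had 2.67 and 4.43 FPKM in WT EBs, 6.15 and 7.77 at E8.0 and 0.598 and 0.437 at E9.0, with -2.39. These 3 had the largest stage differences of the 10, and villin is known from visceral endoderm and gut. Cited1, a transcriptional co-regulator, had 32.1 and 34.4 FPKM in WT EBs, 54 and 57.7 at E8.0 and 18.6 and 16.9 at E9.0, with -1.60. Pcbd1, a pterin dehydratase, had 16.7 and 21.4 FPKM in WT EBs, 29.5 and 30.4 at E8.0 and 9.95 and 9.02 at E9.0, with -1.56. Gldc, of the glycine cleavage system, had 20 and 29.1 FPKM in WT EBs, 36.6 and 33.8 at E8.0 and 15.5 and 14.8 at E9.0, with -1.16. Taf1d, a subunit of a polymerase I factor, had 41.6 and 35.6 FPKM in WT EBs, 51.2 and 53 at E8.0 and 28.9 and 30.1 at E9.0, with -0.80, the smallest of the 10.

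In 3 genes the EBs lay above E8.0 and below E9.0. Neurod4, a proneural factor, had 1.83 and 0.735 FPKM in WT EBs, 0.0139 and 0.0823 at E8.0 and 2.65 and 3.31 at E9.0, with 1.92 between the stages. Dnm3os, a noncoding transcript that hosts microRNAs, had 1.4 and 0.557 FPKM in WT EBs, 0.0859 and 0.125 at E8.0 and 2.59 and 3.13 at E9.0, with 1.80. Kank4 had 1.51 and 2.0 FPKM in WT EBs, 0.819 and 0.906 at E8.0 and 2.94 and 2.95 at E9.0, with 1.08. In each the 2 EB libraries fell between the stages, which the choice of these rows favours.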

How the results depend on the processing

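Against the 4 embryo libraries 6701 rows were called. With single libraries left out the count ran from 1388 (without EB WT 2) to 6389, and without EB WT 1 it was 3207. Against E8.0 alone (6040 rows) it ran from 1150 to 5806, with 2701 without EB WT 1, and against E9.0 alone (7050 rows) from 1987 to 6654, with 3690 without EB WT 1. The E9.0 against E8.0 contrast, whose alternatives were chosen after seeing the data, called 3910 rows, 352 without weights, 630 in the 6 WT libraries without weights, and 1438 to 3809 with single libraries left out (1438 and 1965 without either E8.0 library, 2357 and 2493 without either E9.0 library). Fewer samples and another variance model are what these alternatives change, and the cause of the size of each drop was not tested.

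Replicate numbers showed no pairing among the WT EB, E8.0 and E9.0 groups, where same-numbered libraries' deviations correlated at -0.040, -0.014 and -0.031. Pairing of the WT EBs with the Strap-/- EBs was not checked. With the replicate block 6895 rows were called against the embryos, 6076 against E8.0, 7063 against E9.0 and 2966 between stages. Of 440 genes to be named, not all of which are printed here, 359 were called, 171 of them under each of the 16 alternatives that tested them, and none reversed where it was tested. The filter at 5 FPKM tested 356 of the 440, and all 304 of these that were called kept their call. Among the genes each alternative tested, 102 calls were lost without EB WT 1, 180 without EB WT 2, 49 with no filter and at most 19 under each other alternative.

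The share of called rows that were higher was 54.1%, 46.0% after quantile normalization and 60.6% with a common total that left out ribosomal, mitochondrial and short rows. That total moved the median of all rows from 0.052 to 0.12. Medians of the epiblast, trophoblast, decidua, glia, surface ectoderm and cholesterol lists changed sign in at least 1 alternative. EB depth (about 18500000 and 19000000 fragments) and the spread of 2 EB libraries limit small differences.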

Other observations

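Growth and timing genes outside the lists above also differed. Of 23 tested imprinted genes 4 were higher and 9 lower in WT EBs (1 and 7 without EB WT 1, 0 and 3 without EB WT 2). Grb10, a growth restrictor, had 103 and 71.7 FPKM in WT EBs, 360.0 and 331 at E8.0 and 388 and 407 at E9.0 (log2 difference -2.10 ± 0.21 SE, limma adjusted p = 6.4e-04), and Ndn, expressed in neurons, had 6.09 and 4.96 FPKM in WT EBs, 16.6 and 17.3 at E8.0 and 23 and 23.9 at E9.0 (log2 difference -1.69 ± 0.18 SE, limma adjusted p = 8.5e-04). Igf2, the embryonic growth factor, had 234 and 89 FPKM in WT EBs, 407 and 427 at E8.0 and 623 and 577 at E9.0 (log2 difference -1.79 ± 0.45 SE, limma adjusted p = 0.017), a call lost without EB WT 2 (-1.09, adjusted p = 0.23). Of 11 tested genes of the Lin28 and let-7 timing pathway 8 were lower and 0 higher (0 and 4 without EB WT 1, 0 and 2 without EB WT 2). Hmga1, a chromatin protein, had 89.1 and 94.8 FPKM in WT EBs, 312 and 262 at E8.0 and 317 and 283 at E9.0 (log2 difference -1.66 ± 0.16 SE, limma adjusted p = 6.4e-04), and Mycn had 36.8 and 39.3 FPKM in WT EBs, 79.9 and 75.9 at E8.0 and 75.5 and 72.2 at E9.0 (log2 difference -0.98 ± 0.11 SE, limma adjusted p = 8.8e-04). Both EB libraries lay below all embryos in Grb10, Hmga1 and Mycn.

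Among 25 tested tissue-restricted splicing regulators 6 were higher and 8 lower (3 and 2 without EB WT 1, 3 and 0 without EB WT 2). Celf5, a neural splicing factor, had 3.96 and 4.91 FPKM in WT EBs, 0.614 and 0.458 at E8.0 and 0.21 and 0.27 at E9.0 (log2 difference 1.97 ± 0.18 SE, limma adjusted p = 5.4e-04). Mbnl2, a muscleblind factor that promotes adult exons, had 20.4 and 17.5 FPKM in WT EBs, 6.45 and 6.78 at E8.0 and 8.02 and 7.19 at E9.0 (log2 difference 1.30 ± 0.15 SE, limma adjusted p = 0.0011), and Esrp1, the epithelial splicing regulator, had 21.9 and 26.4 FPKM in WT EBs, 13.1 and 11.9 at E8.0 and 6.86 and 6.37 at E9.0 (log2 difference 1.31 ± 0.15 SE, limma adjusted p = 9.7e-04). All 3 stood above every embryo library in both EBs, and all 3 were taken from the 6 higher members. Over all rows 23.9% were called higher and 20.3% lower, so the share higher in this list was near that over all rows. The list's median log2 difference was -0.25.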
